A study of Sus scrofa with 33 samples.

Results

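The comparison set the pituitary transcriptome of 11 pigs of a Large White x Creole cross (F1) against that of 11 purebred Large White pigs, on 22 of the 33 arrays of the series. The arrays were chosen by breed as given in the sample title, and the 11 Creole arrays entered the model and are shown beside the results. All animals were castrated males raised on an experimental farm in Guadeloupe. The groups were 5 Large White pigs at 24 °C (LW_24), 6 Large White pigs after heat (LW_30), 6 F1 pigs at 24 °C (F1_24) and 5 F1 pigs after heat (F1_30). The labels give 30 °C for the heat groups, whereas the text of the series gives 32 °C, and the exposure lasted 4 or 5 days before slaughter. The 24 °C pigs were killed first and the room was warmed afterwards, so that temperature and slaughter day cannot be told apart. Each breed came from 3 litters of 4 littermates, and neither the litter, the pen nor the direction of the cross is given in the labels. Litter and breed cannot be told apart here, and p-values treat pigs as independent.

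The pituitary gland links the hypothalamus to the thyroid, the adrenals, the gonads and growth, through cell types that each secrete their own hormone. An F1 animal carries one chromosome set from each parental breed, whereas the mitochondrial genome passes through the mother alone. Large White is a white breed selected for growth, and the Creole pig of Guadeloupe is a local tropical breed.

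Each animal was measured on 1 one-colour Agilent porcine array, and values are log2 of quantile-normalised intensity, on which a difference of 1 is 2-fold. Between 73.5% and 80.5% of the spots were well above background on the F1 arrays and between 74.1% and 79.6% on the Large White arrays. The 22 arrays correlated with each other between 0.978 and 0.996 over all probes. Each of the 5 slides held arrays of both breeds. GH1, PRL, POMC and CGA, which encode growth hormone, prolactin, the ACTH precursor and the common glycoprotein hormone subunit, stood above 99.9% of the measured genes. AVP and OXT, hormones of the posterior lobe, were also bright, above 99.4% and 98.4% of the genes, although the methods of the study describe the anterior lobe.

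Some arrays stood apart. LW_24 replicate 2 had the lowest weight of the 33 arrays (0.372) and, among the 22 F1 and Large White arrays, the lowest median correlation with the others (0.983). Its TSHB level was 8.55 against 13.69 to 15.56 on the other Large White arrays, and its PRL level 18.20 against 18.83 to 18.96. The endothelial genes VWF and PLVAP and the myelin gene MBP were higher on it than on any other Large White array, at 12.53 against at most 11.10, 15.45 against at most 14.40 and 14.01 against at most 12.75. Of the 51 cell type markers measured, 20 lay above and 16 below the range of the other Large White arrays. Among the F1 arrays, F1_30 replicates 2 and 5 had the lowest weights (0.556 and 0.507) and the lowest median correlations (0.986 and 0.987). They were the lowest F1 arrays for RIDA, GPM6B, DPYD, SDHD, ANXA1, SELENOP, TEK and B2M, all described below as lower in F1. With both left out, a setting chosen after the data were seen, 31 of the 63 called genes chosen by the naming rule kept their call, 32 lost it and 0 changed direction.

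LW_30 replicate 3 is a Large White pig by its title and a Creole pig by its breed field. It was analysed by its title. On 7 named genes the other Large White arrays did not overlap the Creole arrays. LW_30 replicate 3 lay within the Large White range on 5 of them, KIT, GALNT1, RGP1, SELENOF and DCPS, and between the ranges for IGFBP5. Its KIT level was 10.71, against 8.80 to 9.45 on the Creole arrays, and its SELENOF level 7.18, against 10.34 to 12.06. Its OAZ3 level of 7.31 lay within the Creole arrays (6.94 to 7.56) and below all other Large White arrays (8.76 to 9.84).

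Of 45667 probes, 674 differed between F1 and Large White (1.48% called; limma, adjusted p under 0.05), and 6327 had an unadjusted p under 0.05. F1 was higher on 251 probes (0.55%) and lower on 423 (0.926%). The processed signal of the scanner files scaled to its 75th percentile gave a more even split, with 252 higher and 262 lower. Without LW_24 replicate 2, 570 probes were called, of which 483 were among the 674. Counted over probes, the differences were mostly small, with a median absolute difference of 0.44 among the called probes, and 31 of them reached 2-fold, 20 higher and 11 lower in F1. The called probes named 264 of 10226 gene symbols (2.58%), and 303 called probes had no symbol. Represented by its brightest probe, a gene was called in 165 cases (1.61%), 55 higher (0.538%) and 110 lower (1.08%). With LW_30 replicate 3 taken as Creole 449 probes were called, and without it 529. Without F1_30 replicates 2 and 5 together 239 were called, 103 higher and 136 lower. Fitting only the 22 F1 and Large White arrays, without Creole, gave 331 calls, 127 higher and 204 lower. That fit ended the calls of 30 of the 63 genes chosen by the naming rule at differences near those of all 33 arrays, among them DPYD and RGS5 (adjusted p = 0.0536 for both), TEK (0.0754), SELENOF and SYNGR2 (0.0762 for both) and CYCS (0.0872). The other calls it ended were those of AIF1, ANXA1, ASIP, CACNA1G, CDH5, COX2, CSF1R, CYTB, DDR2, FCER1G, FKBP4, GHSR, IGF2R, IGFBP5, LAMP2, NAP1L4, NISCH, OAZ3, PHKG1, PITX1, PTPRC, SDHD, SELENOP and SLA-6, at adjusted p of 0.0514 to 0.131.

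The number of calls moved with single animals. It was 367, 377 and 439 without F1_30 replicates 1, 2 and 5, 392 and 382 without F1_24 replicates 2 and 4, and 415 and 427 without LW_24 replicates 3 and 4. It was 1158 without F1_30 replicate 3 and 1092 without LW_30 replicate 4. Of the 63 called genes chosen by the naming rule, 34 stayed under the threshold with each of the 22 arrays left out in turn. These were the genes with an adjusted p of 0.0234 or less, and each of the other 29 lost its call without at least 1 array.

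**Figure D1:**
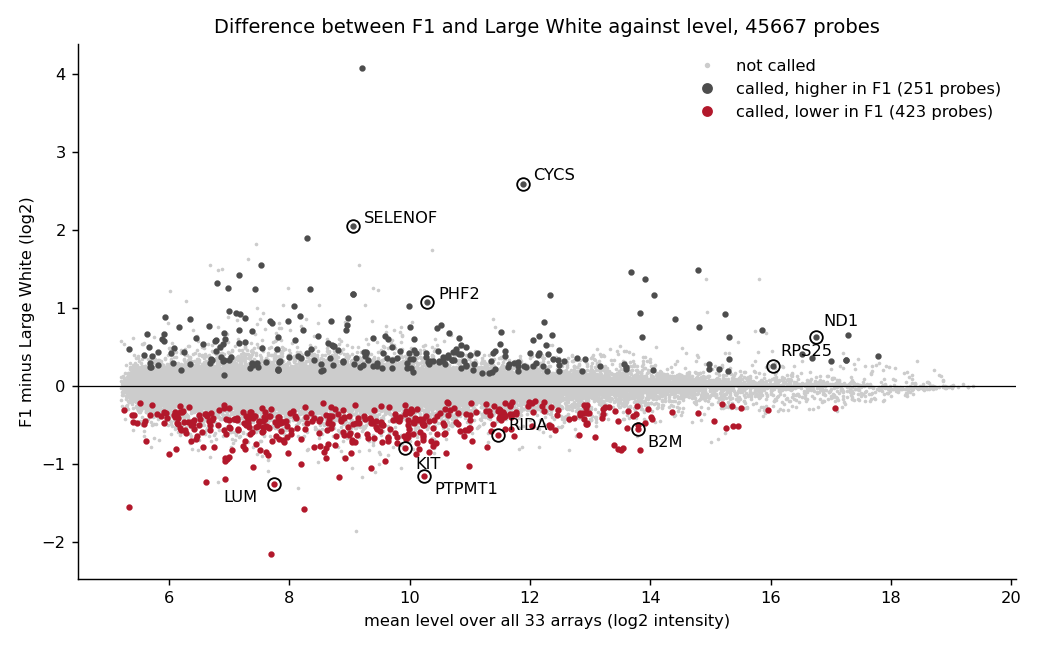
Difference between F1 and Large White (log2, y axis) against the mean level over all 33 arrays (log2 intensity, x axis) for 45667 probes, with the 251 probes called higher in F1 in dark grey, the 423 called lower in red and 10 named genes ringed. Called probes lie at all levels, and most of them within 1 log2 unit of 0.

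KIT, the receptor tyrosine kinase for stem cell factor and the locus of dominant white coat colour in pigs, had the smallest p of any named gene. Its 5 probes lie at 3 places of the transcript, and 30 bases of each place are printed to show that the probes read different stretches (capitals mark bases that a second probe of the same place shares).
KIT place 1: ttttactcctgacctggtttctaagtagtt
KIT place 2: TCATGTTCACATATTTGAGGGGGGAAAACC
KIT place 3: TTGAGAAGCAGATTTCGGAGAGCACCAATC
On the probe of place 1, the Large White arrays ran from 10.31 through a median of 10.69 to 11.14 and the F1 arrays from 9.70 through 9.88 to 10.17. All F1 arrays lay below all Large White arrays. The difference was -0.79 ± 0.09 (SE; adjusted p = 1.14e-05). It was called within the 24 °C pigs (-0.81 ± 0.13, adjusted p = 0.00575) and within the heat-exposed pigs (-0.77 ± 0.13, adjusted p = 0.0149). The other 4 probes were called too, at -0.73 to -0.49. The Creole arrays lay lower still (8.80 to 9.45). Large White minus Creole was 1.57 ± 0.09 and F1 minus Creole 0.78 ± 0.09, comparisons that share arrays with the first. Among the other genes of coat colour and stature, ASIP, the agouti antagonist of the melanocortin receptor, was lower in F1 on 1 of its 2 probes (-0.36 ± 0.08, adjusted p = 0.0211). Over the alternative settings the ASIP difference ran from -0.70 to -0.23. By the brightest probe KIT and ASIP were 2 of 16 measured genes on that list called lower, with a median difference of 0.02, against 1.08% called lower and a median of 0.01 over all genes.

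The arrays of F1 and Large White did not overlap on 15 probes (0.0328%), 4 higher and 11 lower in F1, of which 13 were called. By symbol, KIT gave 3 of them and RIDA 4. P2RY6, a purinergic receptor for UDP, was read by 1 probe, with Large White arrays from 9.57 through 9.77 to 10.03 and F1 arrays from 8.74 through 9.39 to 9.50. The breeds did not overlap, and the difference was -0.49 ± 0.07 (adjusted p = 0.000297). The Creole arrays ran from 9.32 to 9.70 and so lay across both. RIDA, a reactive intermediate deaminase, was read by 7 probes that carry its symbol, all below 0 (-0.82 to -0.30), of which 2 were called. On its named probe Large White ran from 11.69 through 11.86 to 12.22 and F1 from 10.72 through 11.30 to 11.62, a difference of -0.63 ± 0.11 (adjusted p = 0.0022). The Creole and F1 means were both 11.26, and the Creole arrays (10.80 to 11.70) overlapped both breeds. Without F1_30 replicates 2 and 5 the difference was -0.51 ± 0.10 (adjusted p = 0.0139). The remaining probes without overlap were assigned no symbol. Among them was a called probe with the design name Hrsp12 (-0.64 ± 0.11, adjusted p = 0.0022). It equalled the named RIDA probe on 57 of 57 aligned bases. The largest difference among the probes without a symbol was 1.56 ± 0.15, on a transcript described only as a protease.

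Several genes were lower in F1 on more than 1 probe. Counting genes with as many called as uncalled probes or more, all called in 1 direction, 45 of 5040 genes with 2 or more probes met this (0.893%), 8 higher and 37 lower. SLCO2B1, an organic anion transporter, ran from 8.76 through 9.49 to 10.36 on the Large White arrays and from 7.95 through 8.69 to 9.15 on the F1 arrays. The groups overlapped, but all 11 F1 arrays lay below the Large White median, and the difference was -0.93 ± 0.15 (adjusted p = 0.00123) with -0.86 on the second probe. NUDT9, an ADP-ribose pyrophosphatase, was lower by a similar amount (-1.03 ± 0.18, adjusted p = 0.0026), from a Large White median of 11.74 to an F1 median of 10.66. CCK, the peptide cholecystokinin, was low throughout, with F1 arrays between 7.03 and 7.47 and 8 of 11 Large White arrays at 7.96 or above. Its difference was -0.74 ± 0.13 (adjusted p = 0.0029), and its 4 called probes overlap at 1 place, so that they are 1 reading rather than 4. That place is shown as read by the named probe, in capitals where all bases are shared with another probe.
CCK: TCTGTGACCCCTGGTGTGAAAGTGTCCCTA
GALNT1, which starts mucin-type O-glycosylation, differed by -0.69 ± 0.12, and LRRTM4, a synaptic adhesion protein, by -0.44 ± 0.08. CYP2C49, a cytochrome P450, differed by -0.24 ± 0.04 at a low level near 6, with -0.46 under the processed signal and -0.14 under normexp background correction, where it was not called (adjusted p = 0.0515). These 3 genes were called on 2 probes each.

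The genes called higher in F1 were fewer. PHF2, a histone demethylase read by 1 probe, ran from 9.15 through 9.46 to 10.41 on the Large White arrays and from 9.31 through 10.64 to 11.12 on the F1 arrays. Of the 11 F1 arrays 10 lay above the Large White median and 1, F1_24 replicate 3, at the Large White level. The difference was 1.08 ± 0.17 (adjusted p = 0.00123), and the Creole mean of 10.78 was near the F1 mean of 10.57. WNT2B, a Wnt ligand, was higher by 0.56 ± 0.11 on 2 probes and LIPA, the lysosomal acid lipase, by 0.36 ± 0.07 on 2 of 4 probes, with 0.34 and -0.15 on the other 2.

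**Figure D2:**
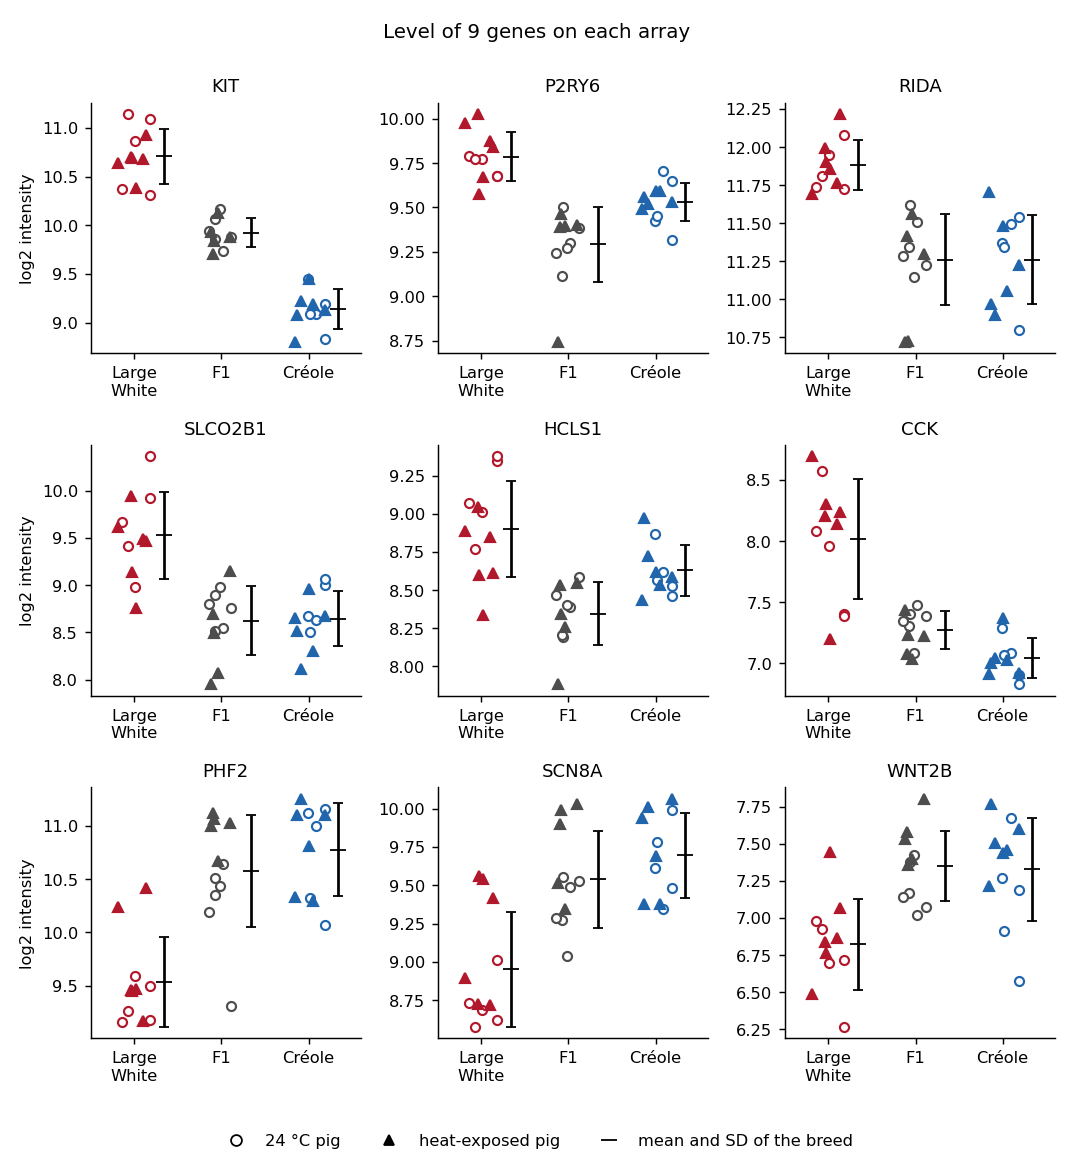
Level (log2 intensity, y axis, a scale of its own in each panel) of 9 genes on every array of Large White, F1 and Creole, with open circles for pigs at 24 °C, filled triangles for heat-exposed pigs and a bar for the mean and SD of the breed (n = 11). F1 and Large White separate fully for KIT, P2RY6 and RIDA and overlap for the other 6 genes.

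The hormone genes themselves did not pass the test. Of 7 measured, 0 were called by limma on any of their 25 probes. On the brightest probe of each, 1, TSHB, had an unadjusted p under 0.05, and GH1, PRL, POMC, CGA, LHB and FSHB differed by between -0.07 and 0.07. GH1, POMC and CGA lay between 18.78 and 19.12 on all 33 arrays and took only 13 to 15 distinct values each, because quantile normalisation gives the brightest ranks the same values on every array. Differences near 0 in these 3 genes therefore say little about their transcripts. TSHB, the thyrotropin subunit, ran from 8.55 through 14.58 to 15.56 in Large White and from 14.56 through 15.38 to 16.20 in F1. Of the 11 F1 arrays 10 lay above the Large White median. The difference of 1.37 ± 0.60 missed the threshold (adjusted p = 0.276), and was 0.79 ± 0.44 without LW_24 replicate 2 (adjusted p = 0.431). These values do not show that TSHB was equal in both breeds.

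A few single genes of the pituitary axes were called. DIO2, the deiodinase that makes active thyroid hormone inside the cell, was higher in F1 by 0.45 ± 0.10 (adjusted p = 0.0169), from a Large White range of 10.85 to 11.86 to an F1 range of 11.26 to 12.38. The groups overlapped, with 10 of 11 F1 arrays above the Large White median, and its 2 probes have the same sequence. GHSR, the ghrelin receptor, was higher by 0.35 ± 0.09 (adjusted p = 0.0385) on 1 of 2 probes of identical sequence, the other at 0.29. DIO2 and GHSR were the 2 called genes of 31 measured receptors and feedback genes, whose median difference was 0.05. Over all genes 0.538% were called higher by the brightest probe, with a median of 0.01. PITX1, a transcription factor that acts in all hormone lineages, was the only called gene of 22 measured lineage factors, against the same 0.538% (0.29 ± 0.07, adjusted p = 0.0385). All 11 F1 arrays lay between 14.99 and 15.30, inside the Large White range of 14.64 to 15.33, whose median was 14.71. Without LW_24 replicate 2 the GHSR difference was 0.34 and just missed the threshold (adjusted p = 0.0577), while DIO2 (0.0336) and PITX1 (0.046) stayed under it. All 3 calls were lost without F1_30 replicates 2 and 5 (GHSR 0.181, DIO2 0.0731, PITX1 0.118). The GHSR call was lost without any 1 of 13 arrays and the PITX1 call without any 1 of 12, and both with the processed signal, whereas the DIO2 call was kept in each of these. In the secretory granule list limma called 0 of 20 genes, with 6 at an unadjusted p under 0.05.

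SCN8A and CACNA1G, which encode voltage-gated sodium and calcium channels, were the 2 called genes of 26 measured ion channels, both higher in F1 (0.538% over all genes), and the median of the list was 0.08 against 0.01 (0.04 without LW_24 replicate 2). SCN8A ran from 8.58 through 8.73 to 9.56 in Large White and from 9.04 through 9.51 to 10.03 in F1. All F1 arrays lay above the Large White median, and 3 Large White arrays, LW_30 replicates 1, 2 and 4, lay among the F1 arrays. The difference was 0.61 ± 0.12 (adjusted p = 0.00667). CACNA1G differed by 0.27 ± 0.07 at a low level of 5.45 to 6.40 (adjusted p = 0.0313), with 0.64 under the processed signal and 0.18 under normexp background correction, and its call was lost without any 1 of 7 arrays.

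Of 34 measured genes of the leukocyte list, 5 were lower in F1 on at least 1 probe, ITGB2, CSF1R, AIF1, FCER1G and PTPRC, against 172 of 10226 over all genes. HCLS1, ADA2 and CCR1, named by other rules, are not on that list and are described beside it for their known roles. HCLS1, a cytoskeletal adaptor of blood cells, was called on 3 of 3 probes at 3 places. It ran from 8.34 through 8.89 to 9.38 in Large White and from 7.88 through 8.39 to 8.59 in F1. The groups overlapped, all F1 arrays lay below the Large White median, and the difference was -0.57 ± 0.10 (adjusted p = 0.00199). ITGB2, the beta chain of the leukocyte integrins, differed by -0.55 ± 0.11 (adjusted p = 0.00774), ADA2, a deaminase secreted by myeloid cells, by -0.87 ± 0.15 (0.0022), and CCR1, a chemokine receptor, by -0.50 ± 0.10 (0.00603). CSF1R, AIF1, FCER1G and PTPRC, markers of macrophages and of leukocytes as a whole, differed by -0.42, -0.44, -0.49 and -0.33 on their called probes. All of these calls were lost with the processed signal and with LW_30 replicate 3 taken as Creole. The PTPRC difference ran from -0.52 to -0.21 over the alternative settings and the CSF1R difference from -0.57 to -0.31. The PTPRC, CSF1R and FCER1G calls were also lost with normexp background correction. Not every probe agreed, since the brightest PTPRC probe gave -0.08 ± 0.11. In tissue RNA, fewer cells of a type and less RNA per cell cannot be told apart.

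Over the leukocyte list, 34 of 44 genes were measured. By the brightest probe 2 were called lower and 0 higher, the median difference was -0.14 and 73.5% of the genes lay below 0, against a median of 0.01, 45.3% below 0 and 1.08% called lower over all genes. The mean level of the list ran from 8.76 to 9.20 on the Large White arrays and from 8.69 to 8.94 on the F1 arrays. LW_24 replicate 2 was the highest, and without it the Large White arrays reached 9.09 and the median was -0.11, whereas without F1_30 replicates 2 and 5 it was -0.18 and with the processed signal -0.23. HCLS1, ITGB2, ADA2 and CCR1 were still called without that array, whereas PTPRC (-0.29, adjusted p = 0.0614), CSF1R (-0.38, 0.0702), AIF1 (-0.37, 0.071) and FCER1G (-0.44, 0.0814) were not, at differences close to those with it. Without F1_30 replicates 2 and 5 those 4 genes lost their calls too (adjusted p of 0.0534 to 0.0964), and the first 4 kept them. CD163, a macrophage receptor, was at 0.41 ± 0.17 and CD79B, of B cells, at 0.40 ± 0.27, neither called.

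Among 26 measured genes of antigen presentation, 2 were called lower by the brightest probe (1.08% over all genes), with a median of -0.07 against 0.01 over all genes. Without LW_24 replicate 2 there was 1 call and the median was -0.03. CTSS, the protease that trims the invariant chain, was lower by 0.48 on the log2 scale (-0.48 ± 0.09, adjusted p = 0.00573) and was called on both probes. B2M, the light chain of class I molecules, was called on 4 of 10 probes, and all 10 lay between -0.55 and -0.24. On its named probe Large White ran from 13.69 through 14.11 to 14.44 and F1 from 12.96 through 13.71 to 14.00. The ranges overlapped, with all F1 arrays below the Large White median (-0.55 ± 0.11, adjusted p = 0.0107), and the call was lost without F1_30 replicates 2 and 5 (-0.42 ± 0.10, 0.0601). SLA-6, a class I gene, differed by -0.57 ± 0.15, a call lost without any 1 of 16 arrays, LW_24 replicate 2 among them (-0.51, adjusted p = 0.0764). Class I genes are similar in sequence, and a probe may bind more than 1 of them. Interferon-stimulated genes gave 0 calls by limma of 35 measured, with 4 at an unadjusted p under 0.05 and a median of -0.08, which was -0.05 without LW_24 replicate 2 and -0.00494 with LW_30 replicate 3 taken as Creole.

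A few vascular genes were also lower in F1. RGS5, of pericytes, was called on 3 of 3 probes (-0.96 ± 0.22 on the named probe, adjusted p = 0.02, from a Large White range of 9.01 to 11.31 to an F1 range of 8.19 to 10.78), TEK, the angiopoietin receptor, on 2 of 4 (-0.71 ± 0.16, 0.0222) and CDH5, the endothelial cadherin, on 2 of 3 (-0.45 ± 0.12, 0.0375). These were 3 of 28 measured genes by the brightest probe, with a median of -0.17 and 89.3% of the genes below 0, against 1.08% called lower, a median of 0.01 and 45.3% below 0 over all genes. Without LW_24 replicate 2 the median was -0.12 and the brightest probes no longer passed the threshold. On the named probes RGS5 (-0.86, adjusted p = 0.0387) and TEK (-0.66, 0.0403) then stayed under the threshold, and CDH5 (-0.37, 0.0616) did not. Without F1_30 replicates 2 and 5 the median was -0.19, and the calls of RGS5 (-0.83, 0.083), TEK (-0.49, 0.102) and CDH5 (-0.46, 0.0842) were lost. The endothelial markers PECAM1 and PLVAP were at -0.26 ± 0.11 and -0.28 ± 0.14, and VWF at 0.14 ± 0.16, none called. Markers of some other cell types had medians on the same side, none of them called by the brightest probe. The 5 neuron or brain markers had a median of -0.32, among them MBP at -0.32 ± 0.37, MOBP at -0.70 ± 0.37, GFAP at -0.07 ± 0.17 and GAP43 at 0.01 ± 0.10. The medians were -0.17 for 3 erythrocyte and -0.12 for 4 folliculostellate markers, beside -0.27 for 4 endothelial and -0.31 for 5 leukocyte markers. On the other side lay the medians of 4 thyrotroph (0.35, 1 called), 4 somatotroph (0.16), 2 lactotroph (0.11) and 4 fibroblast markers (0.09). The part of these cell types in the lower leukocyte and vascular genes was not tested.

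LUM, the matrix proteoglycan lumican, was called lower on 5 of 11 probes, from -1.26 ± 0.25 (adjusted p = 0.00706) to -0.81. The other 6 probes ran from -0.22 to 0.12, and the brightest of all was at -0.10 ± 0.14. On the named probe the Large White arrays ran from 7.36 through 8.02 to 9.90 and the F1 arrays from 6.23 through 6.57 to 8.08. The difference without LW_24 replicate 2, the highest array, was -1.09 ± 0.23 (adjusted p = 0.0131). In the extracellular matrix list, limma called 0 of 44 genes by the brightest probe, with 5 at an unadjusted p under 0.05. ANXA1, a folliculostellate marker, was called on 2 of 9 probes (-0.51 ± 0.13), a call lost without any 1 of 13 arrays, LW_24 replicate 2 among them (adjusted p = 0.0701), and without F1_30 replicates 2 and 5 (0.197).

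Growth factor and redox genes gave scattered calls. IGFBP5, a binding protein of the insulin-like growth factors, was lower by -0.47 ± 0.11 (adjusted p = 0.0284) on 1 of 2 probes and IGF2R, which clears IGF2, by -0.27 ± 0.07 (0.0371) on 1 of 6 probes. IGF1, IGF2 and GHR were at 0.07, 0.04 and 0.09. Counting any probe, NAP1L4 and IGF2R were called among 29 measured genes of the imprinted list, against 2.58% over all genes, and the median difference of the list was 0.01. SOD2, the mitochondrial superoxide dismutase, was called on 3 of 9 probes, at -1.58, -0.47 and -0.46, while others lay up to 0.10. GCLM, a subunit of glutathione synthesis, differed by -0.38 ± 0.08 (adjusted p = 0.00774), and SELENOP, a selenium transport protein, by -0.53 ± 0.14 (0.0401) on 1 of 12 probes. DDR2, a collagen receptor kinase, differed by -0.53 ± 0.13 (0.0273) on 1 of 2 probes. RPS25, a ribosomal protein, was higher by 0.25 ± 0.06 (0.0375) and was the only one of 70 measured cytosolic ribosomal proteins that was called, against 1.61% over all genes. Calls were lost without any 1 of 13 arrays for SELENOP, 12 for RPS25, 7 for IGF2R and 4 each for DDR2 and IGFBP5. Without F1_30 replicates 2 and 5 the calls of SELENOP (adjusted p = 0.2), IGF2R (0.182), DDR2 (0.0862), RPS25 (0.0781), NAP1L4 (0.0731) and SOD2 (0.0584) were lost. Those of IGFBP5 (0.013) and GCLM (0.0281) were kept.

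Transcripts of the mitochondrial genome leaned towards F1. Of its 128 probes 20 were called, all higher in F1, and 108 lay above 0, with a median of 0.20. Over all probes 0.55% were called higher and the median was 0.01. ND1 and ND2, subunits of complex I, gave 10 of 20 and 6 of 13 probes, COX1 gave 2 of 25, COX2 1 of 5 and CYTB 1 of 21, and the other 8 genes gave none. ND4 had a median of -0.01. By the brightest probe limma called 0 of the 13 genes, with 7 at an unadjusted p under 0.05, all above 0, and it called 4 with the processed signal. The 64 dimmer probes had a median of 0.25 and the 64 brighter probes 0.15. Against these, 68 measured nuclear genes of oxidative phosphorylation had a median of 0.04, and by the brightest probe 1 was called higher (0.538% over all genes), UQCRC2, of complex III (0.42 ± 0.11 on 1 of 2 probes). SDHD, of complex II, was lower on 1 of 9 probes (-0.47 ± 0.12). These calls were lost without any 1 of 13 and 15 arrays.

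Inside Large White the named ND1, ND2, COX1 and CYTB probes fell into separate levels. The array means over all mitochondrial probes showed no such gap in Large White (-0.40 to 0.25). In Creole (-0.44 to 0.15) their largest gap set CR_24 replicate 3 and CR_30 replicate 5 apart. On the named COX2 probe the largest gap set LW_30 replicates 1 and 2 apart instead. The named ND1 probe ran from 17.12 to 17.44 on the F1 arrays, with an SD of 0.10, and from 16.01 to 17.36 on the Large White arrays, with an SD of 0.51. Of the Large White arrays 4 lay between 17.13 and 17.36, within the F1 level, and 7 between 16.01 and 16.59. The same 4 arrays, LW_24 replicates 1 and 5 and LW_30 replicates 5 and 6, were the upper ones for ND2 (14.93 to 15.11 against at most 14.12), COX1 (16.23 to 16.55 against at most 15.65) and CYTB (17.78 to 17.92 against at most 16.95). Among the Creole arrays, CR_24 replicate 3 and CR_30 replicate 5 were the upper ones for all 4 genes. The means over all mitochondrial probes were also highest on these arrays in each breed. They were 0.08 and 0.15 on these Creole arrays (next -0.11), and 0.14 to 0.25 on the 4 Large White arrays (next 0.04). Over all called probes, the largest gap between Large White arrays set these 4 arrays apart on 15 probes (2.23%), of which 12 were mitochondrial, against 0.151% of all probes. This division was noticed after the values were seen and has no test. The named ND1, ND2, COX1 and CYTB probes that defined it are among the probes counted, so that the shares do not test it. The ND1, ND2, COX1 and CYTB calls were lost without F1_30 replicates 2 and 5 (adjusted p of 0.0841 to 0.13), at differences of 0.59 to 0.79. The differences were 0.63 ± 0.15 for ND1 (adjusted p = 0.0243), 0.86 ± 0.21 for ND2 (0.0274), 0.72 ± 0.17 for COX1 (0.0267) and 0.65 ± 0.17 for CYTB (0.0468, a call lost without any 1 of 16 arrays). They are means over a divided group, and within slides the CYTB difference ran from -0.07 to 1.27. Whether the 4 arrays share a maternal line cannot be read from the labels.

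**Figure D3:**
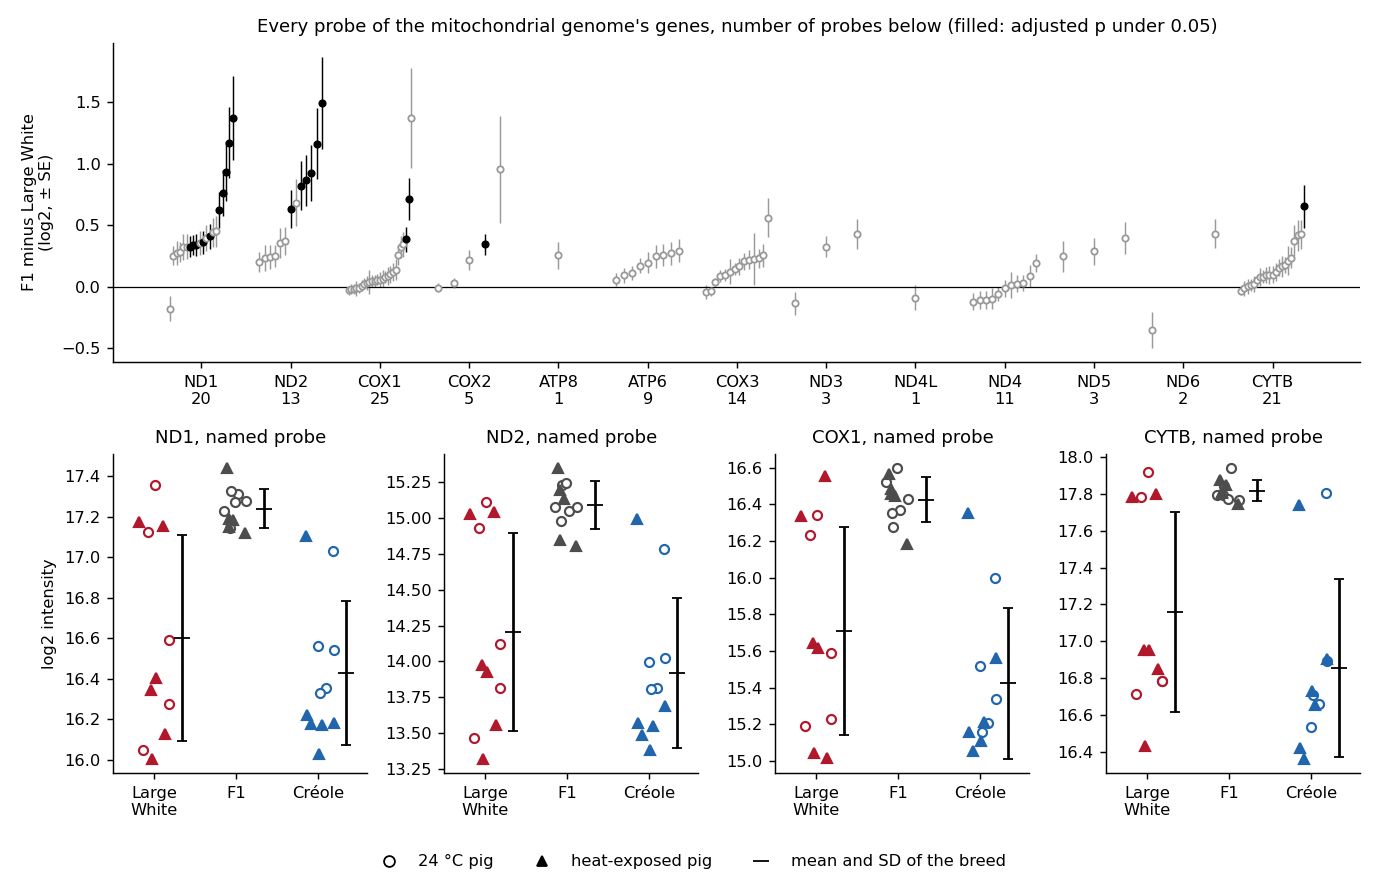
Top, F1 minus Large White (log2, with SE) on every probe of 13 genes of the mitochondrial genome, filled where adjusted p was under 0.05, and bottom, the level (log2 intensity, a scale of its own in each panel) of the named ND1, ND2, COX1 and CYTB probes on each array (open circles 24 °C, filled triangles heat, bar mean and SD). The F1 arrays lie together near the upper level, while 4 Large White and 2 Creole arrays lie near that level and the others below it.

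The largest named differences sat on single probes whose gene did not follow. CYCS, cytochrome c, was higher in F1 by 2.59 ± 0.60 (adjusted p = 0.0221) on 1 of 14 probes, and the other 13 ran from -0.40 to 0.28, none called. A stretch of the called probe is shown with the most similar other probe, with capitals where the bases differ and positions counted from the first base shown.
CYCS called probe: gctgtaccGtGagcacagatCtgtaaatta
CYCS other probe: gctgtaccAtCagcacagatTtgtaaatta
The differences from the other probe are A9G, C11G and T21C, and 49 of 52 aligned bases were equal. The other probe gave -0.29. On the called probe the F1 arrays ran from 11.49 through 12.58 to 13.45, and the Creole arrays from 12.27 to 13.28. The Large White arrays ran from 6.58 through 11.11 to 12.68, in 2 sets, 5 arrays at 6.58 to 8.53 and 6 at 11.11 to 12.68.

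SELENOF, a selenoprotein of the endoplasmic reticulum, had probes called in opposite directions. One probe was higher in F1 by 2.05 ± 0.48 (adjusted p = 0.0243) and another lower by -0.65, and the remaining 4 ran from -0.64 to -0.22. Both called probes read 1 place, with capitals where they differ.
SELENOF probe called higher: tctAccattgatcagtctcttaccgAgagg
SELENOF probe called lower: tctTccattgatcagtctcttaccgTgagg
These differ by T4A and T26A from the second to the first, with 28 of 30 aligned bases equal. On the probe called higher, all Large White arrays lay at 5.997 to 7.63 and all Creole arrays at 10.34 to 12.06. The F1 arrays were divided, 4 at 6.27 to 7.21 and 7 at 9.21 to 11.07. Large White minus Creole was -4.12 ± 0.48 and F1 minus Creole -2.06 ± 0.48. A change in transcript level and a change in how well the transcript binds a probe cannot be told apart from 1 probe.

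Other single probes showed a similar division of 1 breed. RGP1, which acts in vesicle transport, was higher by 0.88 ± 0.16 (adjusted p = 0.00518) on 1 of 5 probes, with 7 Large White arrays at 5.94 to 6.26 and 4 at 7.16 to 7.39, level with F1. LAMP2, a lysosomal membrane protein, was higher on 1 of 8 probes (0.94 ± 0.23) and SYNGR2, of synaptic-type vesicles, on 1 of 2 (1.02 ± 0.23). For both, the same 5 Large White arrays were at the F1 level, and within slides the differences reached from -0.36 and -0.26 to 1.64 and 1.92. PHKG1, a phosphorylase kinase subunit, was higher by 1.18 ± 0.31 (adjusted p = 0.0448), with 5 Large White arrays at 6.83 to 7.08 and 6 at 8.77 to 9.85, a call lost without any 1 of 15 arrays. The LAMP2 call was lost without any 1 of 10 arrays, LW_24 replicate 2 among them (0.86, adjusted p = 0.06).

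In other genes it was F1 that was divided. PTPMT1, a mitochondrial phosphatase read by 1 probe, was lower by -1.15 ± 0.22 (adjusted p = 0.00524), with Large White arrays at 10.23 to 10.84, Creole arrays at 10.42 to 11.02 and F1 arrays at 8.22 to 10.62. Of the F1 arrays 6 lay at 8.22 to 9.23 and 5 at 9.74 to 10.62. NISCH, an imidazoline-binding protein, was higher by 0.84 ± 0.20 (0.0267) on 1 of 5 probes, the other 4 at 0.01 to 0.04, with 5 F1 arrays at 7.23 to 7.95 and 6 at 8.44 to 9.50. The same 5 F1 arrays, F1_24 replicates 1, 3 and 6 and F1_30 replicates 3 and 4, were the ones nearer to Large White for PTPMT1, NISCH and LUM. The largest gap between F1 arrays set these 5 apart on 18 called probes (2.67%), against 0.357% of all probes, a count made after the values were seen. The named probes of these genes defined the division and are among the 18, so that the shares do not test it. DPYD, which degrades pyrimidines, was lower by -0.84 ± 0.18 on 2 of 2 probes (-0.58 ± 0.14, adjusted p = 0.0447, without F1_30 replicates 2 and 5), with F1 arrays spread from 8.59 to 10.74. Large White minus Creole was -0.06 for PTPMT1, 0.13 for NISCH and 0.16 for DPYD. DCPS, the scavenger decapping enzyme, was lower by -0.92 ± 0.22 on 1 of 2 probes, with Large White arrays within 9.32 to 9.54 and F1 arrays from 7.34 to 9.53. GPM6B, a neural membrane protein, differed by -0.86 ± 0.18 on 1 of 4 probes (-0.66 ± 0.17, adjusted p = 0.0656, without the same F1_30 arrays) and OAZ3, an antizyme, by -0.998 ± 0.24 on 1 of 3. For DCPS and OAZ3, Large White minus Creole was larger, at 1.54 and 1.88.

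**Figure D4:**
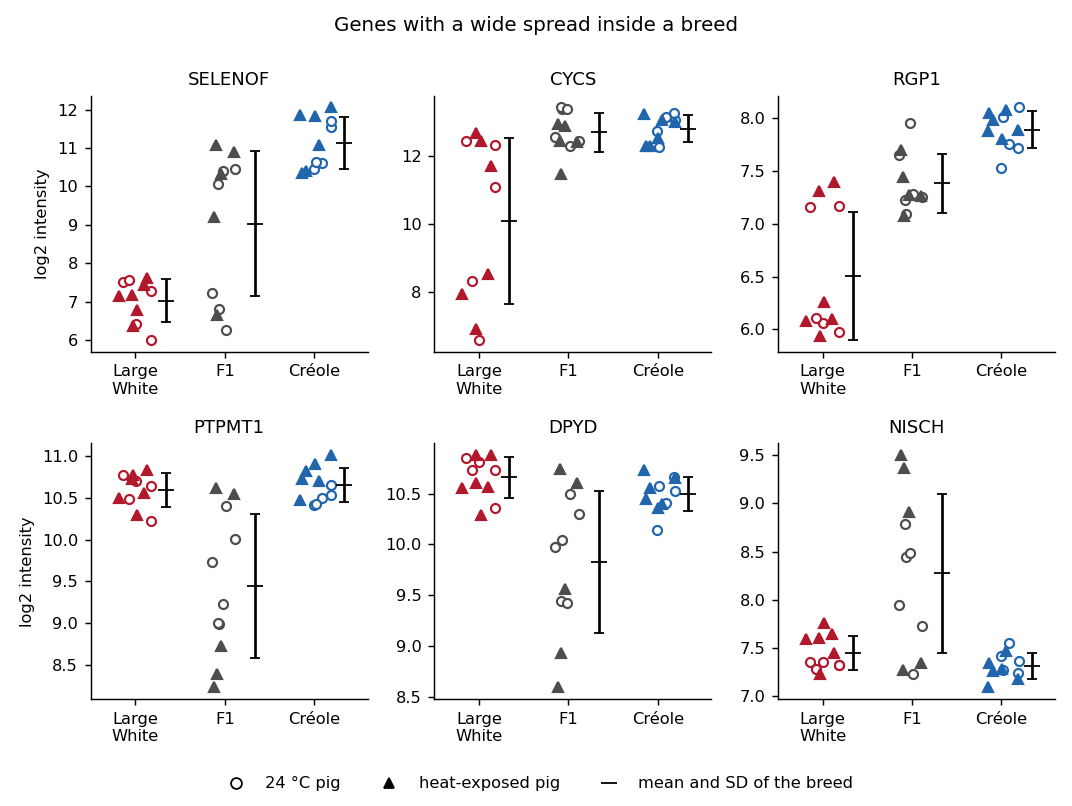
Level (log2 intensity, y axis, a scale of its own in each panel) of 6 genes with a wide spread inside a breed, on every array (open circles 24 °C, filled triangles heat, bar mean and SD of the breed, n = 11). Large White is divided for CYCS and RGP1, and F1 is divided or widely spread for SELENOF, PTPMT1, DPYD and NISCH.

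**Figure D5:**
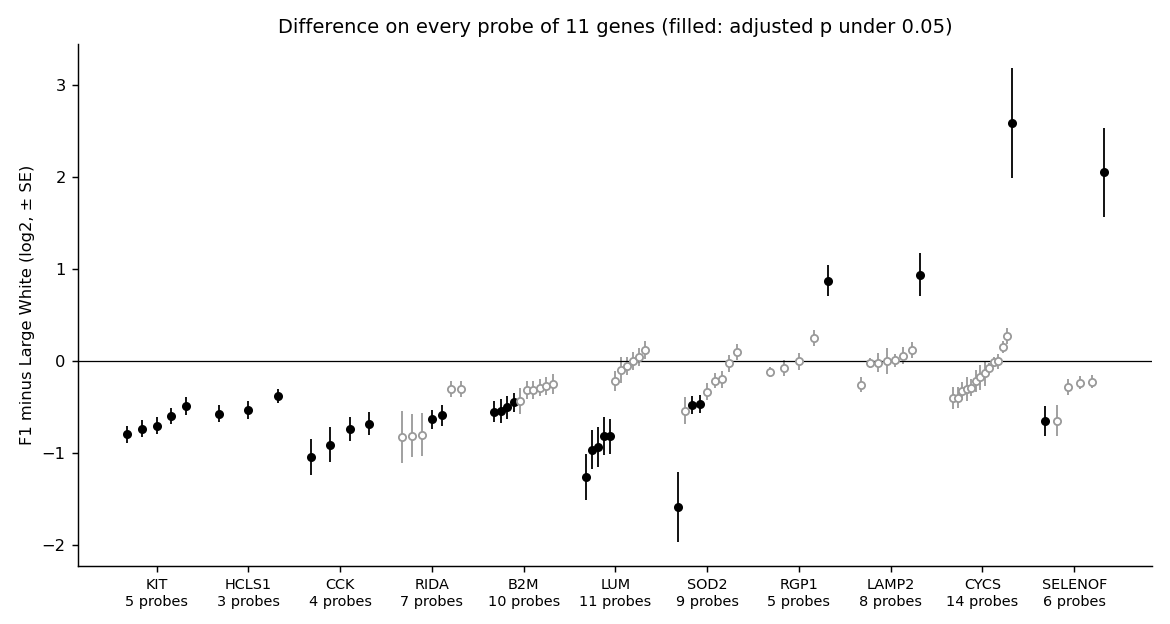
F1 minus Large White (log2, with SE, y axis) on every probe of 11 genes, filled where adjusted p was under 0.05. The probes of KIT, HCLS1, CCK, RIDA and B2M lie on 1 side of 0, whereas RGP1, LAMP2, CYCS and SELENOF each have 1 probe far from the others.

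Only 1 called probe was bounded by background. TC614628, which has no gene symbol, was well above background on 0 of 11 F1 arrays and on 6 of 11 Large White arrays. The Large White arrays ran from 4.66 to 8.45 and the F1 arrays from 4.62 to 5.11 (limma, adjusted p = 0.024). The Large White mean of 6.41 was 2.29-fold above the limit of 5.22 set for F1. That mean includes arrays not well above background, so that the fold is not a firm lower bound, and no F1 level was measured.

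Within 24 °C, 42 probes were called (0.092%), 24 higher and 18 lower in F1, and within heat 62 (0.136%), 20 higher and 42 lower. The lean under heat changed with the setting, to 22 higher and 22 lower with the processed signal, 17 and 12 with array weights, 3 and 3 with LW_30 replicate 3 taken as Creole, and 5 and 4 without F1_30 replicates 2 and 5. The 2 sets of calls shared 5 probes, which is 11.9% of the first and 8.06% of the second. The first count was 13 to 22 without any 1 of F1_24 replicates 1, 2, 4, 5 and 6 and LW_24 replicates 3 and 4, at 21, 16, 17, 13, 13, 14 and 22. The second was 424 and 481 without F1_30 replicates 3 and 4 and 191 without LW_30 replicate 4, and 18, 9 and 16 without F1_30 replicates 1, 2 and 5. It was 17, 10, 12, 23 and 12 without LW_30 replicates 1, 2, 3, 5 and 6. The test of whether the difference itself changed with temperature called 0 probes (0%; limma, 2224 at an unadjusted p under 0.05, smallest adjusted p 0.91). FKBP4, a co-chaperone of steroid receptors, differed by 0.05 ± 0.07 at 24 °C and by 0.40 ± 0.07 under heat, and only the second was called (adjusted p = 0.0149). Its change with temperature did not pass the adjustment (unadjusted p = 0.00136, adjusted 0.91), and its call over both temperatures (0.22 ± 0.06, adjusted p = 0.0375) was lost without any 1 of 12 arrays. It was the called gene among 47 measured heat shock proteins and chaperones, against 0.538% called higher over all genes, and the median difference of the list was 0.01.

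In the remaining lists limma called 0 genes by the brightest probe. At an unadjusted p under 0.05, there were 2 of 13 blood genes (median difference -0.01), 0 of 8 genes of the posterior and intermediate lobes (-0.05), 2 of 13 glucocorticoid-responsive genes (0.00), 2 of 16 clock genes (0.00), 5 of 31 genes of cholesterol and fatty acid synthesis (-0.01), 3 of 27 cell cycle genes (-0.07) and 6 of 22 folliculostellate and stem cell genes (-0.08). Without LW_24 replicate 2 the median was -0.04 for folliculostellate and stem cell genes and -0.01 for genes of the posterior and intermediate lobes. In that setting 1 gene of cholesterol and fatty acid synthesis was called lower (median -0.03). With LW_30 replicate 3 taken as Creole the cell cycle median was -0.02. The 1 measured gene of the Y chromosome was at 0.05. The list of receptor tyrosine kinases held KIT, TEK and DDR2, all lower, among 29 genes with a median of -0.02, against 1.08% called lower over all genes. Without LW_24 replicate 2 that list had 2 calls and a median of 0.02, and with LW_30 replicate 3 taken as Creole it had 1 call. Of the 46 antioxidant and glutathione genes 1 was called lower by the brightest probe, against the same 1.08%. The 21 measured genes of the GH and IGF axis had a median of -0.06 (-0.03 without LW_24 replicate 2).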

How the data were processed

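RNA of 33 pituitary glands was hybridised to 1 array per pig. Per the file headers, Agilent Feature Extraction 10.10.1.1 gave an intensity and marks, among other values, for each of 60306 spots. The authors imported the median intensity with limma, quantile-normalised it with preprocessCore and deposited log2 values of 45667 probes, which were used here unchanged. Direction, scale and centring match the scanner intensities, quantile-normalised again, to a median difference of 0.00376. Quantile normalisation forces 1 distribution on all arrays, so that differences are relative to the other probes. Symbols came from the names in the scanner files and the annotation table, for 21496 probes (47.1%), of which 18897 matched by name, 2436 by accession and 163 by synonym. Names of the array design can be old.

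limma 3.58.1 in R 4.3.3 was fitted to all 33 arrays with breed and temperature, and with group means for each temperature. Tests were two-sided, with Benjamini-Hochberg adjustment over 45667 probes and a threshold of 0.05. Values print as the difference ± SE, on the log2 scale. Pen, slaughter day and parents, which the methods of the study include, were not in the labels and not fitted. Named genes were the 10 largest differences in each direction on probes well above background, up to 12 genes with 2 or more called probes and no more uncalled than called, called genes of 27 gene lists, up to 10 genes without overlap, and the hormones. Each was represented by its probe of smallest p, except the hormones, which were represented by their brightest probe. One gene chosen by this rule and 1 cell type marker are not reported here. The members and lists were chosen with earlier results of these data known. A gene in a list was represented by its brightest probe. Probes sharing 20 or more bases counted as 1 place. The fit was tested on simulated data. Alternatives were other intensities and normalisations, slide as a block, array weights, a filter on dim probes, other variance settings, only the 22 arrays, no temperature term, the other breed label of LW_30 replicate 3 and each array left out. Leaving out F1_30 replicates 2 and 5 together was added after seeing the data.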

Additional observations from a re-analysis of the deposited data

Results flagged for a closer look

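Within each group of 5 or 6 pigs, 280 sets of values of the named genes were searched for an array far from the rest of its group (Dixon's test). Of these sets, 22 held such an array (7.86%). The test flags about 1 in 20 of independent sets. These sets share the same arrays, so that no excess can be read from the share. LW_24 replicate 2 accounted for 10 of them. With the range of the rest of its group in parentheses, it was high for CTSS at 10.75 (10.25 to 10.39), LUM at 9.90 (8.02 to 8.26), RGS5 at 11.31 (10.21 to 10.50), TEK at 9.78 (9.03 to 9.20), CDH5 at 10.26 (9.28 to 9.43), ANXA1 at 10.90 (10.25 to 10.39) and PITX1 at 14.83 (14.64 to 14.69). It was low for TSHB at 8.55 (14.75 to 15.56), PRL at 18.20 (18.88 to 18.96) and DPYD at 10.36 (10.73 to 10.85).

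LW_30 replicate 4 stood apart for 4 genes, low for NUDT9 at 10.92 (11.59 to 11.94), CCK at 7.20 (8.14 to 8.69) and CTSS at 9.84 (10.16 to 10.31) and high for DIO2 at 11.86 (11.24 to 11.46). LW_30 replicate 3, whose breed labels conflict, was low for OAZ3 at 7.31 (8.76 to 9.50), and LW_30 replicate 1 was high for GHSR at 8.15 (7.98 to 8.04). Among the F1 pigs, F1_24 replicate 3 was low for PHF2 at 9.31 (10.20 to 10.64) and UQCRC2 at 11.68 (12.19 to 12.46), and F1_24 replicate 6 was high for COX2 at 15.76 (15.59 to 15.65). F1_30 replicate 2 was low for P2RY6 at 8.74 (9.39 to 9.46) and high for ND1 at 17.44 (17.12 to 17.19), and F1_30 replicate 1 was low for PHF2 at 10.67 (10.995 to 11.12).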

How the results depend on the processing

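The count of 674 called probes was 331 with only the 22 F1 and Large White arrays, 449 with LW_30 replicate 3 taken as Creole, 1019 with slide as a random block and 2576 with array weights. The 42 calls at 24 °C became 21 with the processed signal, 25 with only the 22 arrays and 630 with array weights. The 62 calls under heat became 34 with only the 22 arrays, 29 with array weights and 6 with LW_30 replicate 3 taken as Creole. Leaving out 1 array at a time gave 367 to 1158 calls over both temperatures, 13 to 57 at 24 °C, 9 to 481 under heat, 0 to 1 for the change with temperature and 15 to 25 probes without overlap. Without F1_30 replicates 2 and 5 together, chosen after seeing the data, the counts were 239 over both temperatures, 61 at 24 °C, 9 under heat and 23 without overlap. The cause of these shifts was not tested. Of the 63 called genes chosen by the naming rule, 26 stayed under the threshold in each of the 33 alternatives and none of the 63 changed direction in any of them. Calls were lost for 30 with only the 22 arrays, 20 with LW_30 replicate 3 as Creole, 19 with the processed signal, 13 without LW_24 replicate 2 and 0 with slide as a block or with array weights. Pigs could not be paired between groups, because the labels carry no replicate numbers, but slide was fitted as a block. The precision is limited by 11 pigs per breed and unknown litters, and a probe does not separate transcript level from binding.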
